A study of Homo sapiens with 4 samples.

Results

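HCC827/GR, a derivative of the human lung adenocarcinoma cell line HCC827 that was selected for resistance to gefitinib, was compared with its parent HCC827. The comparison rests on the 2 HCC827 libraries of a series of 4 libraries, and the other pair, A549/DDP (cisplatin-resistant) and its parent A549, is used only to show where the HCC827 pair differs. According to the methods, the resistant lines were raised under stepwise increasing drug over several months and kept without drug for the last week before use, and RNA without ribosomal RNA was read in paired ends. The sample labels name cisplatin as the drug of the resistant HCC827 line, whereas the methods name gefitinib, and gefitinib is used here. Neither source says whether HCC827/GR is a single clone. With 1 library for each line, differences between cultures of a line cannot be judged and no test was run, so the folds below compare single libraries.

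HCC827 depends on signalling from an activating mutation of the epidermal growth factor receptor EGFR, and gefitinib blocks the kinase of that receptor. Cells can escape the block when other receptor kinases, such as MET, the receptor of hepatocyte growth factor, feed the same RAS-MAPK and PI3K-AKT pathways, and the loss of epithelial character and changes in drug transport have been linked to escape as well. The RNAs measured here are circular RNAs (circRNAs), closed loops that form when the spliceosome joins the end of an exon to the start of an earlier one, and long noncoding RNAs (lncRNAs). A circRNA carries the name of its host gene, so the circRNA counts of a host gene give a view of genes whose mRNA was not analysed here.

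The members compared were 1861 of 2279 host genes, those with 20 or more circRNA counts in both HCC827 libraries, and 2675 of 7988 annotated lncRNA genes, those that reached 1 FPKM in either library. Of the 418 host genes left out, 292 reached 20 counts in HCC827 alone, 19 reached it in HCC827/GR alone, and 107 in neither. Counts were scaled to the total circRNA counts of a library, which were 1587755 in HCC827/GR and 2098414 in HCC827. These totals were 7.06% and 7.39% of the reads that the circRNA FPKM imply. The sources used here do not say how reads were assigned to circRNAs, overlapping circRNAs of a gene shared fractional counts, and reads of the linear RNA of a host gene cannot be told apart from reads of the circle in these sums. A gene is said to have risen or fallen when its ratio of HCC827/GR over HCC827 was at least 2 or at most 0.5, the fold thresholds of the study. The intervals given are exact conditional Poisson intervals at 95%, which cover counting error only.

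The HCC827/GR library stood apart from the other libraries in a way that bears on every ratio below. Of 3840 circRNAs, 574 were at 0 in HCC827/GR, against 62 in HCC827, and 15 and 7 were at 0 in A549/DDP and A549. Among circRNAs with 100 or more counts in the parent, 171 of 3001 (5.70%) were at 0 in HCC827/GR, against none of 2808 in A549/DDP. These zeros were more frequent among short circles: 10.8% below 300 bases, 6.08% from 300 to 1000 bases and 2.45% above. Transcripts above 0 among the lncRNAs numbered 7807 in HCC827/GR and 29256 in HCC827. Aligned bases were 4.45 gigabases in HCC827/GR and 5.24 in HCC827. The part of this loss in the results was not tested.

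Markers that separate the lines were looked up in the 4 libraries, and HCC827/GR was less like its parent than the parent was like A549. The circRNA sum of ESRP1, an epithelial splicing regulator, was 610 counts in HCC827/GR and 176 in HCC827, against 1 in A549/DDP and 2 in A549. That of EGFR was 1185 and 814 counts in HCC827/GR and HCC827, against 190 and 136 in A549/DDP and A549. ALDH1A1, an aldehyde dehydrogenase, had 194 counts in HCC827/GR and 23 in HCC827, against 62674 in A549/DDP and 69461 in A549. Of 67 host genes at least 8-fold higher in A549 than in HCC827, 56 lay nearer to HCC827 in HCC827/GR. Of 15 at least 8-fold higher in HCC827, 7 did. The 67 genes are low in HCC827, so counts lost from HCC827/GR would also place them near it. Their count therefore cannot separate likeness to the parent from such loss. Across 1836 host genes with 20 or more counts in all 4 libraries, Spearman's rho was 0.780 between HCC827/GR and HCC827, 0.732 between HCC827/GR and A549, 0.829 between HCC827 and A549, and 0.926 between A549/DDP and A549. Across 445 lncRNA genes at 1 FPKM or more in all 4 libraries, rho was 0.599 between HCC827/GR and HCC827, 0.549 between HCC827/GR and A549, 0.759 between HCC827 and A549, and 0.853 between A549/DDP and A549. These coefficients are across genes, which are not independent replicates. Other markers had little to show: CDH1, EPCAM and VIM had no entry, ZEB1 was at 0 counts in HCC827/GR and 166 in HCC827, and FN1 was at 0 and 6.

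The circRNA sums of 277 host genes (14.9%) rose and those of 328 (17.6%) fell in HCC827/GR. The median host gene had a ratio of 0.969 (log2 -0.05), and the log2 ratios had an SD of 1.11. In the A549 pair, under the same rule, 2.84% of 2147 host genes were higher and 6.94% lower, and the SD of the log2 ratios was 0.678. The circRNAs of a host gene that lie in separate stretches of the gene give a measure of spread that counting intervals do not hold. Error and real differences between these circRNAs cannot be told apart in it. In 315 host genes with at least 2 such circRNAs of 20 or more counts in all 4 libraries, the SD of the log2 ratios within a gene had a median of 0.592 in the HCC827 pair and 0.143 in the A549 pair. The circRNAs of 1 gene lay on both sides of 1 in 133 of these genes (42.2%) in the HCC827 pair, against 65 (20.6%) in the A549 pair.

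**Figure D1:**
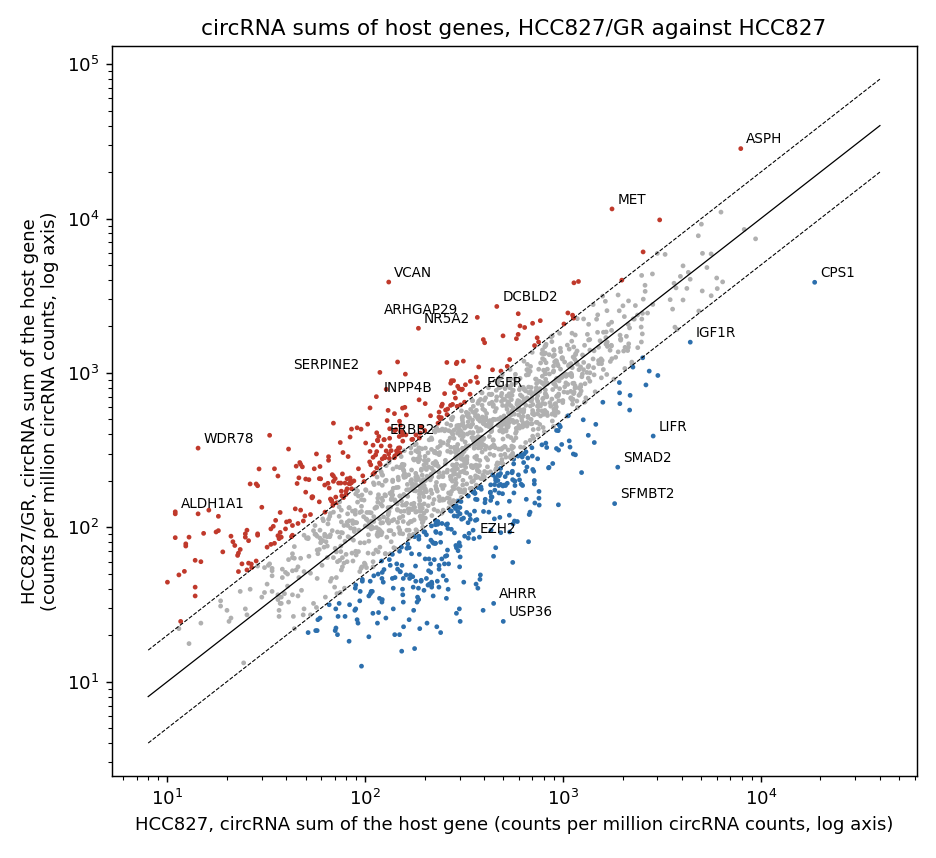
Circular RNA sums of 1861 host genes, scaled to the circRNA total of each library on log axes, with HCC827/GR on the vertical axis and HCC827 on the horizontal axis. The solid line marks equal levels and the dashed lines ratios of 2 and 0.5, red points rose and blue points fell; VCAN and MET lie far above the lines, and USP36, AHRR and SFMBT2 far below.

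**Figure D2:**
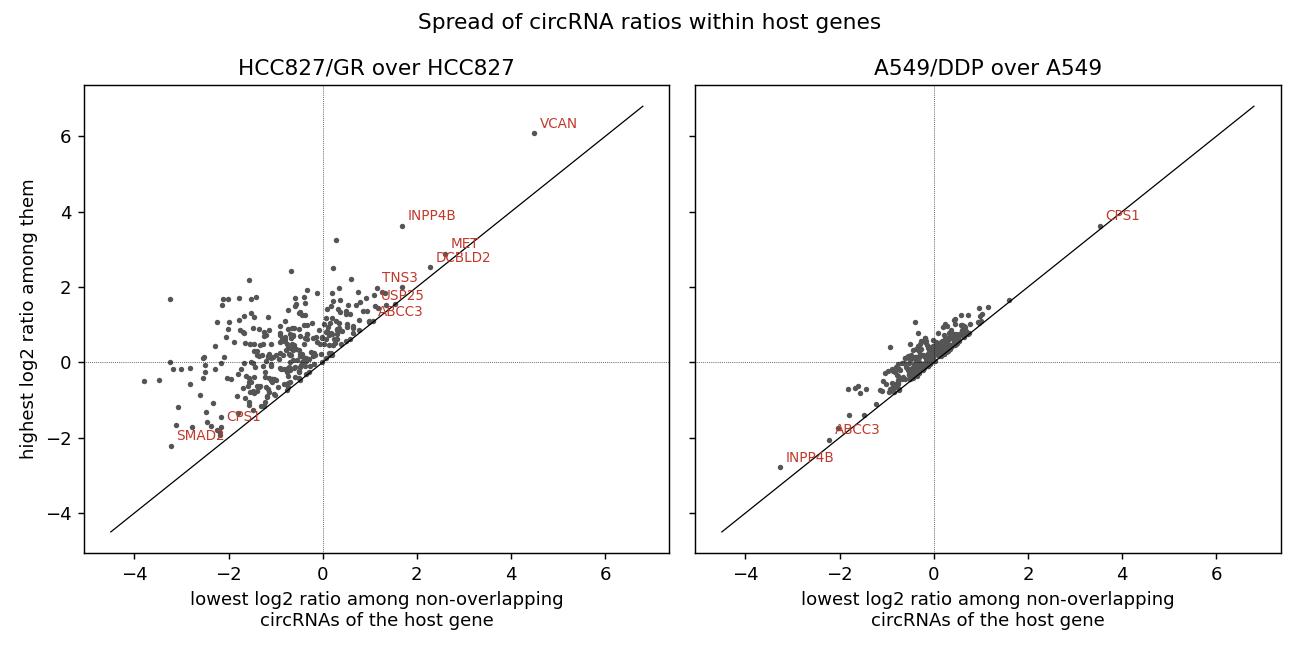
Each point is 1 of 315 host genes, placed by the lowest (horizontal axis) and the highest (vertical axis) log2 ratio among its circRNAs that do not overlap, in the HCC827 pair (left) and the A549 pair (right). Points on the line have equal ratios in all regions: the A549 points hug it, with a median SD of 0.143, whereas those of the HCC827 pair lie off it, with a median SD of 0.592.

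Host genes whose separate circRNAs moved together were then picked out. Of 317 host genes with at least 2 non-overlapping circRNAs of 20 or more counts in both HCC827 libraries, 15 (4.73%) had every such circRNA up by at least 2-fold and 20 (6.31%) had every one down. The 15 were VCAN, MET, DCBLD2, INPP4B, AKAP10, MYBL1, ASPH, TBK1, PLEKHA5, AATF, EFR3A, USP25, TNS3, ABCC3 and RAD23B. The 20 were SMAD2, VWA8, CPS1, DOCK5, ALMS1, POLE2, LIMCH1, NEK9, MTUS1, CEP128, CDK5RAP2, AGFG1, FAM13B, CCDC88A, CACNA2D1, EIF4G3, RPS6KC1, GOLGA4, BARD1 and FNBP4. This selection was made after the values were seen. The summed ratio did not reach the same call in 3 of them: TNS3 had a ratio of 1.05, BARD1 of 0.547 and FNBP4 of 0.595.

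MET had 18322 counts in HCC827/GR and 3712 in HCC827, a ratio of 6.52 (interval 6.30 to 6.76). Its single-exon circRNA, at chr7:116699071-116700284, had 11258 counts in HCC827/GR and 2444 in HCC827, a ratio of 6.09. Its circRNA of 4 exons, at chr7:116757437-116759490, had 7064 counts in HCC827/GR and 1268 in HCC827, a ratio of 7.36. Both regions of the receptor gene rose, and in the A549 pair the sum was 3547 counts in A549/DDP and 3112 in A549. No genome build is named in the sources used here, but 99.7% of the 2131 host genes with a RefSeq entry of the same name overlapped it on GRCh38.p14.

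VCAN had the largest ratio of all host genes compared. It encodes versican, a large proteoglycan of the extracellular matrix. It had 6157 counts in HCC827/GR and 276 in HCC827, a ratio of 29.5 (26.1 to 33.4). Its 1-exon circRNA had 2166 counts in HCC827/GR and 42 in HCC827, and its 5-exon circRNA had 3991 and 234. The lncRNA table held 2 unannotated transcripts from introns of VCAN, which summed to 15.5 bases per megabase aligned in HCC827/GR and were listed at 0 in HCC827. Such intronic sums did not track the circRNA calls closely. They were higher in HCC827/GR in 59.0% of 825 compared host genes with a sum above 0, in 81 of 127 (63.8%) whose circRNA sum rose and in 73 of 150 (48.7%) whose circRNA sum fell. The intronic sums below are given as values beside that background.

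INPP4B, a phosphatase of phosphoinositides that acts on the products of PI3K, had 1559 counts in HCC827/GR and 335 in HCC827, a ratio of 6.15 (5.46 to 6.94). Its 2 main separate regions had ratios of 3.24 and 12.4, and a further circRNA of 2 exons was at 0 in HCC827/GR and at 9 in HCC827. The unannotated intronic transcripts of INPP4B, 49 in the table, summed to 67.1 bases per megabase in HCC827/GR, from 9 transcripts above 0, and to 4.30 in HCC827, from 3. ARHGAP29, a GTPase-activating protein, had 3635 counts in HCC827/GR and 774 in HCC827 (ratio 6.21, 5.74 to 6.72), and its 4 intronic transcripts summed to 47.9 bases per megabase in HCC827/GR and were listed at 0 in HCC827.

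DCBLD2, a membrane protein that is phosphorylated downstream of EGFR and MET, had 4278 counts in HCC827/GR and 971 in HCC827 (ratio 5.82, 5.43 to 6.25). ASPH, an aspartyl hydroxylase of the endoplasmic reticulum, had the highest sum of any host gene in HCC827/GR, 45056 counts, against 16618 in HCC827 (ratio 3.58, 3.52 to 3.65). Its 7 circRNAs had ratios between 2.52 and 4.05. USP25, a deubiquitinase, had 9650 counts in HCC827/GR and 5332 in HCC827, with its 8 circRNAs at ratios between 2.17 and 2.83. AKAP10, an anchor of protein kinase A, had 1893 counts in HCC827/GR and 658 in HCC827. All circRNAs of ASPH and USP25 thus lay above 2-fold.

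Among the host genes that fell, SMAD2, which carries TGF-beta and activin signals to the nucleus, had 389 counts in HCC827/GR and 3969 in HCC827, a ratio of 0.130 (0.116 to 0.144). Its circRNA of 5 exons had 253 counts in HCC827/GR and 3135 in HCC827, and its circRNA of 4 exons 136 and 834. CPS1, the mitochondrial enzyme that starts the urea cycle, had 6134 counts in HCC827/GR and 39278 in HCC827 (ratio 0.206, 0.201 to 0.212), but its 6 unannotated intronic transcripts went the other way, with 14.4 bases per megabase in HCC827/GR and 2.42 in HCC827. DOCK5, an exchange factor for RAC, had 241 counts in HCC827/GR and 1369 in HCC827, and its 2 circRNAs had ratios of 0.221 and 0.262. POLE2, a subunit of DNA polymerase epsilon, had 103 counts in HCC827/GR and 534 in HCC827.

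The 10 largest ratios belonged to VCAN, WDR78, MUTYH, PACSIN2, ALDH1A1, NR5A2, MAN2B2, SERPINE2, CYP20A1 and HAVCR1. NR5A2, a nuclear receptor, had 3090 counts in HCC827/GR and 390 in HCC827 (ratio 10.5, 9.42 to 11.7), and its 3 circRNAs, which overlap, had ratios of at least 10.1. SERPINE2, an inhibitor of thrombin and other serine proteases, had 1600 counts in HCC827/GR and 249 in HCC827 (8.49, 7.43 to 9.74). HAVCR1, a membrane glycoprotein of epithelial cells, had 1869 counts in HCC827/GR and 306 in HCC827 (8.07, 7.15 to 9.14). The others rest on a single circRNA each: WDR78 had 517 counts in HCC827/GR and 30 in HCC827, MUTYH, a DNA glycosylase, 626 and 69, and CYP20A1 379 and 61. PACSIN2, MAN2B2 and ALDH1A1 had 200, 194 and 194 counts in HCC827/GR, against 23, 30 and 23 in HCC827.

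The 10 smallest ratios belonged to USP36, AHRR, PDE4D, SFMBT2, ANKRD12, C3, EFTUD1, STT3B, SLC37A3 and UBR2. SFMBT2, a Polycomb group gene that hosts many circRNAs, had 226 counts in HCC827/GR and 3827 in HCC827 (ratio 0.0780, 0.0679 to 0.0893), and 2 of its 7 circRNAs were at 0 in HCC827/GR. Its intronic transcripts had 10.3 bases per megabase in HCC827/GR and 6.46 in HCC827. AHRR, the repressor of the aryl hydrocarbon receptor, had 51 counts in HCC827/GR and 936 in HCC827, and PDE4D, a phosphodiesterase of cyclic AMP, 46 and 828. The intronic transcripts of PDE4D were also lower, with 9.50 bases per megabase in HCC827/GR and 46.7 in HCC827. USP36, a nucleolar deubiquitinase, had 39 counts in HCC827/GR and 1047 in HCC827, and C3, the central complement component, 33 and 505. The sums in HCC827/GR of these 10 genes ran from 26 to 226 counts. LIFR, the receptor of leukemia inhibitory factor, fell from a higher level, with 619 counts in HCC827/GR and 5995 in HCC827 (ratio 0.136, 0.125 to 0.148).

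At the level of single circRNAs, 464 of 3077 (15.1%) were at least 2-fold higher and 574 (18.7%) at least 2-fold lower in HCC827/GR. The 5 largest ratios were those of both VCAN circRNAs and of 1 circRNA each of WDR78, DCBLD2 and INPP4B. The 5 smallest were 2 of SFMBT2 and 1 each of LIFR, AHRR and NCOA7.

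The gene lists described from here on were chosen with earlier results of these data known, so their counts are descriptions. The receptor tyrosine kinases and ligands list held 42 genes, of which 7 were in the table and 5 were compared. Of these 5, MET and ERBB2 rose and IGF1R fell, with a list median of 0.94 on the log2 scale against -0.05 over all host genes, of which 14.9% rose and 17.6% fell. ERBB2, the partner of EGFR in heterodimers, had 586 counts in HCC827/GR and 262 in HCC827 (ratio 2.96, 2.55 to 3.43). EGFR itself stayed below the threshold with a ratio of 1.92 (1.76 to 2.11). IGF1R, the receptor of insulin-like growth factors, had 2511 counts in HCC827/GR and 9230 in HCC827 (ratio 0.360, 0.344 to 0.376), but its 5 circRNAs disagreed: the largest, of 4 exons, had a ratio of 0.251, another of 3 exons 1.28, and an intronic circle 2.11.

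Below the receptors, the MAPK, PI3K and JAK signalling list had 23 compared genes, with a median of -0.03. Of these, 2 rose, INPP4B and CBLB, and 2 fell, CBL and MAPK9. Over all host genes 14.9% rose and 17.6% fell, with a median of -0.05. Neither count of the list was above these shares. CBL and CBLB are ubiquitin ligases that remove activated receptors. CBL had 85 counts in HCC827/GR and 306 in HCC827, and CBLB had 238 and 142. GRB10 and GRB14, adaptors that bind the insulin receptor, were chosen after their values were seen: GRB10 had 52 counts in HCC827/GR and 384 in HCC827, and GRB14 had 205 and 34. BRAF, a kinase of the MAPK cascade, had 237 counts in HCC827/GR and 396 in HCC827, a ratio of 0.791.

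Lists of cell division, DNA repair and chromatin had medians below the -0.05 of all host genes. Of 34 compared genes of cell cycle and mitosis, 1 rose and 11 fell, where 14.9% of all host genes rose and 17.6% fell, with a list median of -0.38. KIF11, a spindle motor, had 366 counts in HCC827/GR and 1359 in HCC827. BUB1B, a kinase of the spindle checkpoint, had 319 and 983. ROCK1, POLE2, PCNT, ANAPC7, CEP128, CEP70, KIF14, RBL1 and STAG1 also fell, and CDK8, a kinase of the Mediator complex, rose, with 268 counts in HCC827/GR and 105 in HCC827. Of 24 DNA repair genes, RAD51C rose and 8 fell, with a median of -0.27. RAD51C, which acts in homologous recombination, had 417 counts in HCC827/GR and 98 in HCC827, and FANCB, of the Fanconi anemia core complex, had 94 and 1169. Of 50 chromatin modifiers none rose and 6 fell, with a median of -0.20. The share that fell was below the 17.6% of all host genes. Among the 6, EZH2, the Polycomb methyltransferase, had 134 counts in HCC827/GR and 743 in HCC827, and TET2, which oxidizes methylcytosine, 121 and 603. In the A549 pair the same compared genes had medians of 0.48 for cell cycle, 0.24 for DNA repair and 0.14 for chromatin.

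Lists of cell shape had members on both sides, and their counts are to be read against the 14.9% of all host genes that rose and the 17.6% that fell. Of 33 small GTPase regulators, 10 rose and 8 fell, with a median of 0.24. DIAPH2, a formin, had 750 counts in HCC827/GR and 145 in HCC827, TIAM1, an exchange factor for RAC, had 151 and 38, and ASAP1, a GTPase-activating protein for ARF, had 3126 and 1343. PAK2, a kinase downstream of RAC, had 25 counts in HCC827/GR and 321 in HCC827. Of 8 genes of epithelial junctions and epithelial-mesenchymal transition, ESRP1 rose and SMAD2 fell, with a median of 0.67. Of 7 genes of the extracellular matrix and integrins, EXT1 rose and ITGB5 and ADAM10 fell, with a median of 0.28. Versican was not on this list. Of 11 Hippo genes, NF2, a tumor suppressor at the cell cortex, and FAT4 rose and none fell, with a median of 0.04. NF2 had 484 counts in HCC827/GR and 162 in HCC827. Of 8 Wnt and Notch genes, NOTCH1, MAML2 and LRP5 rose and LRP6 fell, with a median of 0.21.

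Of 9 apoptosis genes 4 rose (DAPK1, HIPK2, TNFRSF21 and APAF1) and none fell, with a median of 0.51, where 14.9% of all host genes rose and 17.6% fell; the same shares stand behind the other short lists here. DAPK1, a calcium-dependent death kinase, had 1244 counts in HCC827/GR and 268 in HCC827, and HIPK2, a kinase that phosphorylates p53, had 780 and 271. Of 5 drug efflux transporters, ABCC3 and ABCB10 rose, with a median of 0.27. ABCC3, an exporter of organic anions, had 1751 counts in HCC827/GR and 1097 in HCC827. ABCB10 had 403 and 224, and is a transporter of mitochondria rather than of the cell surface. Of 9 genes of NRF2 targets and glutathione, ALDH1A1 rose and SLC7A11 fell, with a median of 0.10. SLC7A11, the cystine importer, had 135 counts in HCC827/GR and 697 in HCC827. Of 43 ubiquitin ligases and deubiquitinases, 6 rose and 3 fell, with a median of 0.06. SMURF2, a ligase of TGF-beta signalling, had 1823 counts in HCC827/GR and 606 in HCC827. Of 15 circRNA biogenesis factors, ESRP1 and MBNL1 rose and METTL3 fell, with a median of -0.07, and of 38 widely studied circRNA hosts, 3 rose and 6 fell, with a median of 0.05.

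**Figure D3:**
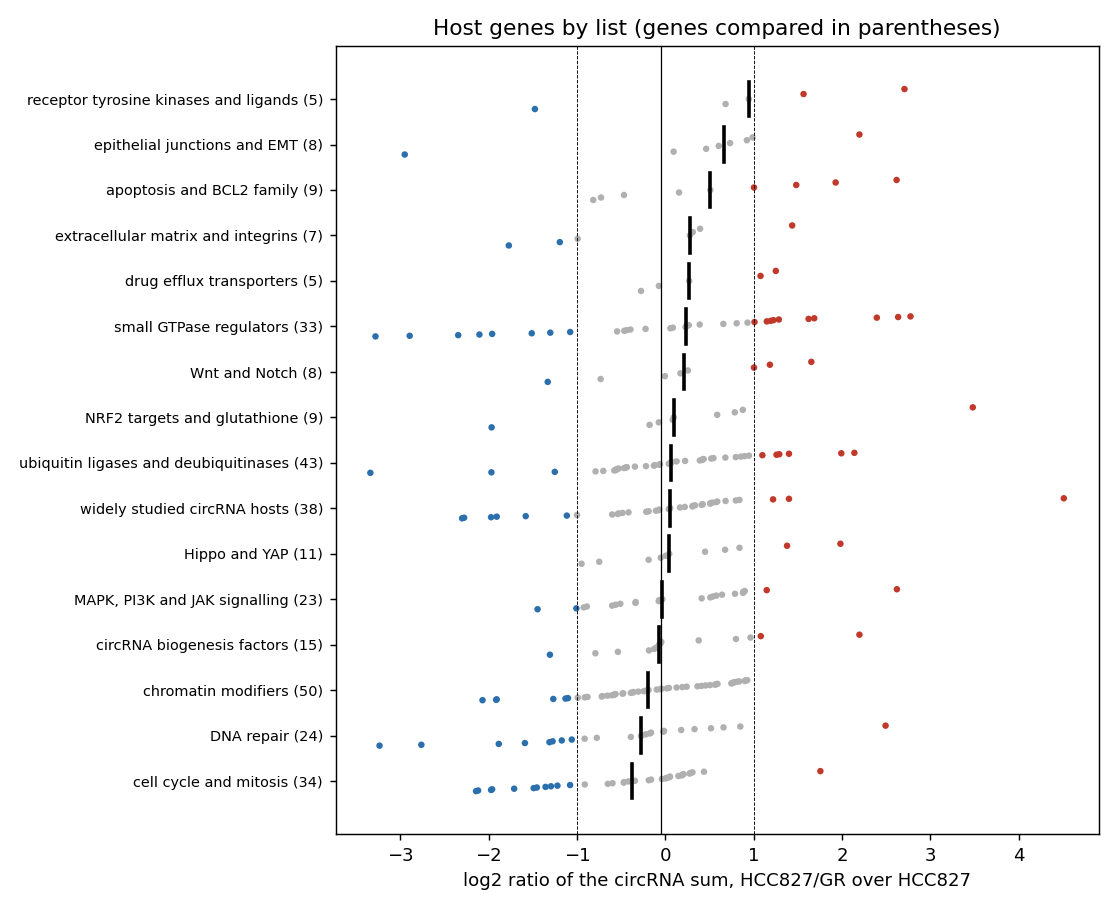
Log2 ratios of circRNA sums (HCC827/GR over HCC827, horizontal axis) of the compared members of 16 gene lists, 1 point per gene, with the list median as a black bar, the median of all host genes as a solid line and 2-fold as dashed lines. Red points rose and blue points fell; cell cycle and mitosis, with 1 red and 11 blue points, has the lowest median.

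The most abundant host genes by count, which depend on length as well as on level, included ASPH, MET, PKM, YWHAE, TXNRD1, TAOK3, LDHA, PABPC1 and USP25. PKM and LDHA, enzymes at the end of glycolysis, had ratios of 1.75 and 1.60, below the threshold. YWHAE, a 14-3-3 protein on chromosome 17, had 15558 counts in HCC827/GR and 6465 in HCC827 (ratio 3.18, 3.09 to 3.27). TXNRD1, a thioredoxin reductase and NRF2 target, had 14597 counts in HCC827/GR and 10506 in HCC827, a ratio of 1.84.

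Host genes near MET on chromosome 7 were set beside it. TES, whose circRNA starts 0.45 Mb before that of MET and whose product binds to focal adhesions, had 2611 counts in HCC827/GR and 830 in HCC827 (ratio 4.16, 3.84 to 4.50). ST7, 0.421 Mb after MET, had 1117 counts in HCC827/GR and 1303 in HCC827 (1.13), and LAMB1, on the side of TES, had 4012 and 4038 (1.31). The lncRNA table held 6 annotated lncRNA genes at 1 FPKM or more within 1 Mb of MET. AC002066.1 had 34.8 FPKM (358 read pairs) in HCC827/GR and 0.0390 FPKM in HCC827. AC073130.3 had 2.78 FPKM in HCC827/GR (34.5 read pairs) against a listed 0 in HCC827. RP11-667F14.1 had 2.82 and 0.407 FPKM (94.6 and 16.1 read pairs), and ST7-OT4 had 12.7 and 1.22 (88.5 and 26.1). ST7-AS1 and AC106873.4 were listed at 0 in HCC827/GR, and had 2.72 and 2.38 FPKM in HCC827 (89.3 and 18.95 read pairs). AC002066.1 and AC073130.3 span the circRNA of TES. Whether the counting used strand is not given, so reads of TES cannot be told apart from theirs. The nearest compared host gene was thus up on 1 side of MET (TES) and below 2-fold on the other (ST7). Ratios as high as that of TES also occurred far from MET on chromosome 7, as in H2AFV (4.16) and MAD1L1 (5.99). DNA copy number was not measured here.

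**Figure D4:**
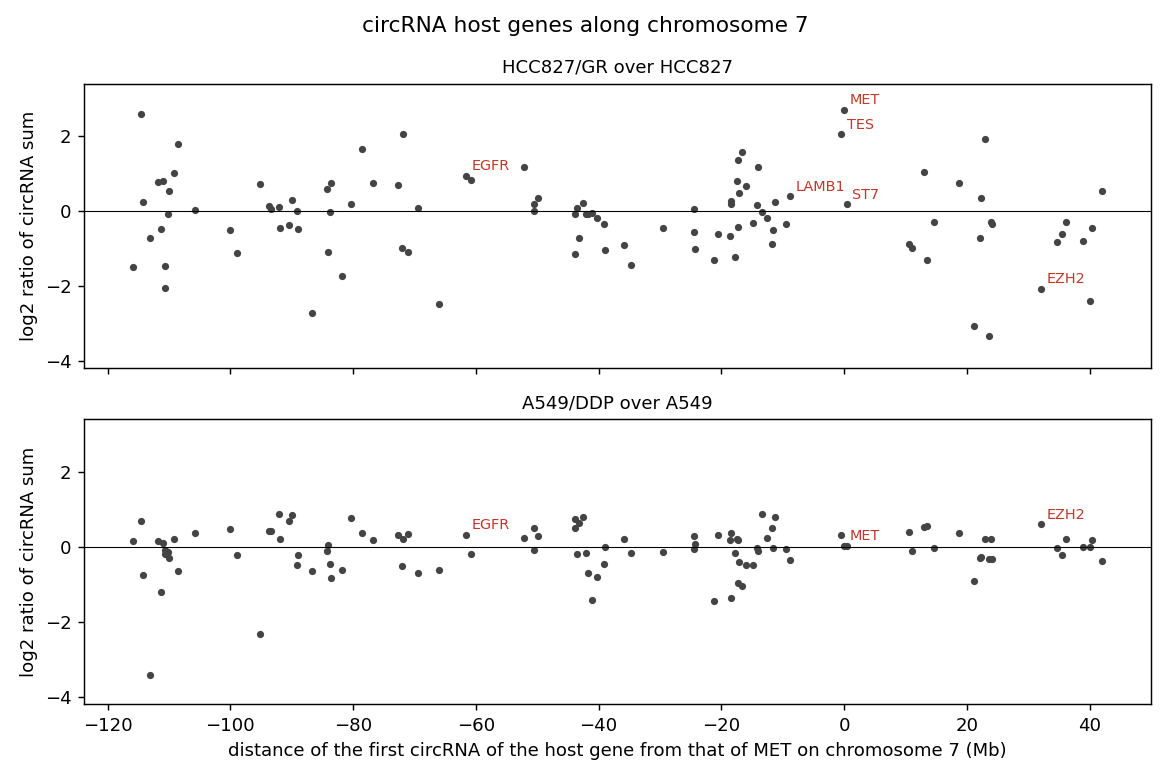
Log2 ratios of circRNA sums of 109 host genes on chromosome 7 against the distance in Mb of their first circRNA from that of MET, for HCC827/GR over HCC827 (upper panel) and A549/DDP over A549 (lower panel). MET and TES, at 2.71 and 2.06, stand above their neighbours in the upper panel, and MET is at 0.03 in the lower one.

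Across the genome, host genes compared in both pairs were grouped in 97 windows of 10 Mb with at least 8 genes each, whose median log2 ratios ran from -1.29 to 0.98. These windows were examined after the values were seen, and their extremes are a description. The highest medians were those of 0 to 10 Mb of chromosome 1 (0.98, 6 of 8 host genes above 1) and 50 to 60 Mb of chromosome 17 (0.91, 8 of 12), followed by both windows of the first 20 Mb of chromosome 17. Between 10 and 20 Mb of chromosome 17, 13 of 13 host genes had a ratio above 1 in the HCC827 pair, with a median of 0.83, against 3 of 13 in the A549 pair, with a median of -0.55. Between 0 and 10 Mb, 16 of 22 did, with a median of 0.73, against 9 of 22 and -0.15 in the A549 pair. The genes there include AKAP10, NCOR1, a corepressor of nuclear receptors with 9300 counts in HCC827/GR and 6887 in HCC827, MAP2K4, a kinase of the JNK pathway with 1364 and 980, and YWHAE. Of the lncRNA genes at 1 FPKM or more in both libraries, 5 of 8 in the window from 10 to 20 Mb and 6 of 8 in the window below lay above the median of all such genes, against 3 of 9 in the window of chromosome 1 and 2 of 6 in that from 50 to 60 Mb of chromosome 17. In the lowest window, 80 to 90 Mb of chromosome 15, 2 of 8 host genes were above 1.

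In the lncRNA table, 642 of 2675 annotated genes (24.0%) were at least 2-fold higher and 1446 (54.1%) at least 2-fold lower in HCC827/GR, on the scale of FPKM + 1. Of the lower genes 1274 were listed at 0 in HCC827/GR, and of the higher genes 250 were listed at 0 in HCC827. A gene at 0 in 1 library and at 1 FPKM or more in the other is past the threshold by construction. In the A549 pair 107 lower genes were at 0 in A549/DDP. The genes with 100 or more read pairs in both libraries, a choice made after the zeros were seen, numbered 293. Of these, 51 (17.4%) rose and 26 (8.87%) fell. The calls use summed FPKM, and ratios of read pairs, scaled to aligned bases, differed in some genes. SLC16A1-AS1, called lower, had a read-pair ratio of 1.08, and RP4-717I23.3, called higher, had 0.666. NEAT1, not called, had 2.47. Among the 765 genes at 1 FPKM or more in both libraries, the median plain ratio was 1.34 (log2 0.42), and no fold was adjusted for that shift.

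Several long noncoding RNAs that have been linked to drug resistance, UCA1 first among them, were higher in HCC827/GR. Of the 29 compared genes of the list of lncRNAs linked to drug resistance or epithelial-mesenchymal transition, 12 rose and 10 fell, where 24.0% of all compared lncRNA genes were higher and 54.1% lower, and 5 of the 10 were at 0 in HCC827/GR. Of its 10 genes with 100 or more read pairs in both libraries, 5 rose (UCA1, AFAP1-AS1, LINC00511, LINC00152 and EGFR-AS1) and 1 fell (H19), where 17.4% of all such genes rose and 8.87% fell. Of these 5, LINC00511 lost its call when unannotated transcripts of the same name were added (log2 ratio 0.22), and EGFR-AS1 and LINC00152 lost theirs when scaled to the median ratio (0.62 and 0.94). In bases per megabase over all its transcripts, LINC00511 had a ratio of 1.96, just below 2-fold. UCA1 had 44.5 FPKM in HCC827/GR (1505 read pairs) and 4.15 FPKM in HCC827 (165 read pairs), 8.84 times on the FPKM + 1 scale (log2 3.14, and 2.35 with unannotated transcripts). AFAP1-AS1, antisense to the actin-binding protein gene AFAP1, had 30.4 FPKM in HCC827/GR (3039 read pairs) and 4.31 FPKM in HCC827 (508 read pairs). LINC00152 had 41.8 FPKM in HCC827/GR and 15.7 in HCC827, and LINC00511 had 26.8 and 8.50. EGFR-AS1, antisense to EGFR, had 15.3 FPKM in HCC827/GR and 7.03 in HCC827; whether the counting used strand is not given, so reads of EGFR cannot be told apart from its own. LINC01057 had 92.6 FPKM in HCC827/GR (1815 read pairs) and 3.75 FPKM in HCC827 (81.7 read pairs), and was chosen after its values were seen. CASC9 had 17.7 FPKM in HCC827/GR and 4.90 in HCC827, but its log2 ratio was -0.25 when unannotated transcripts of the same name were added. TINCR, which promotes differentiation of epidermis, had 0.810 FPKM in HCC827/GR and 5.68 in HCC827.

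**Figure D5:**
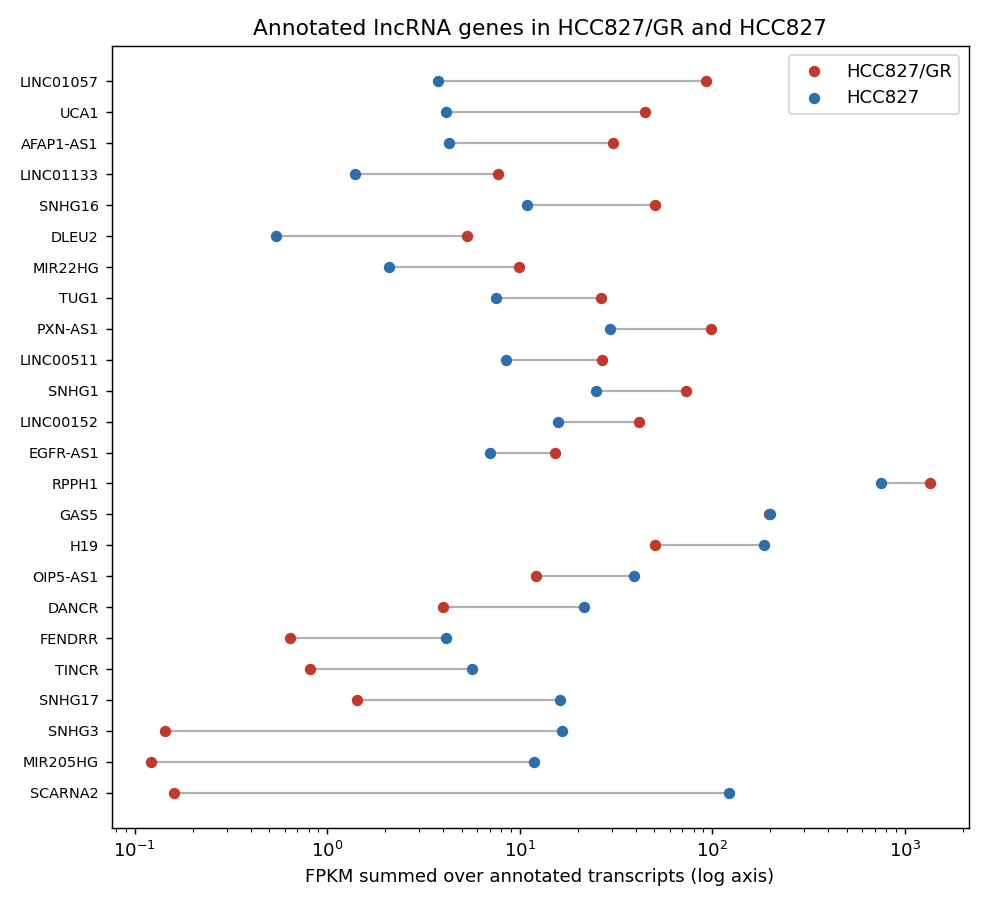
Summed FPKM of the annotated transcripts of selected lncRNA genes (log axis) in HCC827/GR (red) and HCC827 (blue), joined by a line per gene. Genes are ordered from those higher in HCC827/GR, such as UCA1 with 44.5 against 4.15 FPKM, to those lower, such as MIR205HG with 0.121 against 11.9 FPKM; GAS5 differs by less than the width of its points.

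Host genes of microRNAs are shown with the mature sequences they carry, since the sequence is the known product of these lncRNAs, while the microRNAs themselves were not measured here. MIR205HG holds miR-205, a microRNA of epithelial cells that targets ZEB1 and ZEB2. MIR22HG holds miR-22, H19 holds miR-675, MIR222HG holds miR-221 and miR-222, and DLEU2 holds miR-15a and miR-16. The sequences are from RefSeq on GRCh38.p14, all of these 7 matched its table, and the capitals mark the seed, bases 2 to 8, by which a microRNA pairs with its targets.
miR-205-5p: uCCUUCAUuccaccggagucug
miR-22-3p: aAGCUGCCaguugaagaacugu
miR-675-5p: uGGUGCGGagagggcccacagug
miR-221-3p: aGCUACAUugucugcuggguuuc
miR-222-3p: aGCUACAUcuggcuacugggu
miR-15a-5p: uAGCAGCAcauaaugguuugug
miR-16-5p: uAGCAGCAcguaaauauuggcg
miR-221-3p and miR-222-3p share the seed GCUACAU, and miR-15a-5p and miR-16-5p share the seed AGCAGCA.

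MIR205HG had 0.121 FPKM in HCC827/GR (5.95 read pairs) and 11.9 FPKM in HCC827 (575 read pairs), and 1 of its 4 annotated transcripts was above 0 in HCC827/GR against 4 in HCC827. H19, an imprinted lncRNA, had 50.5 FPKM in HCC827/GR (1736 read pairs) and 185 FPKM in HCC827 (7038 read pairs). MIR22HG had 9.95 FPKM in HCC827/GR (384 read pairs) and 2.10 FPKM in HCC827 (93.0 read pairs), and DLEU2 had 5.33 FPKM (130 read pairs) and 0.540 FPKM (28.7 read pairs). MIR222HG had 9.95 FPKM in HCC827/GR and 4.61 in HCC827, below the threshold on the FPKM + 1 scale with a ratio of 1.95. The microRNA host list as a whole had 3 of 16 compared genes higher and 10 lower, 7 of them at 0 in HCC827/GR, against 24.0% higher and 54.1% lower over all compared lncRNA genes. MIR100HG and MIR99AHG were among these, with 33.1 and 49.3 read pairs in HCC827.

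Of 25 snoRNA host genes, which carry small nucleolar RNAs in their introns, 3 rose and 15 fell, 8 of the 15 being at 0 in HCC827/GR, with a median of -1.30 against -1.07 over all lncRNA genes compared, of which 24.0% were higher and 54.1% lower. The 8 with 100 or more read pairs in both libraries had a median of 0.14, with 2 up and 1 down. SNHG16 had 50.2 FPKM in HCC827/GR and 10.9 in HCC827, and SNHG1 had 72.8 and 24.8, but its log2 ratio was 0.99 in bases per megabase. SNHG3 had 0.143 FPKM in HCC827/GR (4.65 read pairs) and 16.5 FPKM in HCC827 (732 read pairs), and SNHG17 had 1.43 and 16.1 FPKM. GAS5 had 197 FPKM in HCC827/GR and 199 in HCC827. Its circRNA sum was at 0 in HCC827/GR and at 395 counts in HCC827, so it was not among the host genes compared. It is 1 of 37 host genes with 200 or more counts in HCC827 and 0 in HCC827/GR.

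Of 12 HOX cluster lncRNAs, HOXA-AS2 rose and 9 fell, 8 of them at 0 in HCC827/GR, with a median of -1.28 against -1.07 over all lncRNA genes, of which 24.0% were higher and 54.1% lower. HOXA11-AS was listed at 0 in HCC827/GR and had 6.90 FPKM (165 read pairs) in HCC827, and HOTAIRM1 was listed at 0 and had 9.92 FPKM (111 read pairs). HOXA-AS2 had 9.35 FPKM in HCC827/GR (89.8 read pairs) and 0.847 FPKM in HCC827 (27.5 read pairs). Of 21 lncRNAs antisense to signalling genes, 5 rose and 6 fell, with a median of -0.03; PXN-AS1, antisense to the paxillin gene, had 98.5 FPKM in HCC827/GR and 29.4 in HCC827. Of 4 imprinted lncRNAs 3 fell, H19, SNHG14 and ZFAT-AS1, with a median of -1.46. In read pairs SNHG14 stayed below 2-fold, with a ratio of 0.598.

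Of 11 nuclear body and abundant lncRNAs, TUG1 and LINC00152 rose and OIP5-AS1, DANCR, PVT1 and MALAT1 fell, with a median of -0.61. Over all compared lncRNA genes 24.0% were higher and 54.1% lower, with a median of -1.07, so the list lay above that median. The 7 list genes with 100 or more read pairs in both libraries had a median of -0.615, with 2 up and 2 down. That was below the median of 0.119 over all genes with such read pairs, so the place of the list depended on the genes it was set against. DANCR lost its call with unannotated transcripts (log2 ratio -0.67). The fall of MALAT1 depended on the transcripts summed. Its annotated transcripts summed to 120 FPKM in HCC827/GR and 2350 in HCC827, while all its transcripts held 2858 bases per megabase aligned in HCC827/GR and 2257 in HCC827. PVT1 was listed at 0 in HCC827/GR and at 9.11 FPKM in HCC827 over annotated transcripts, but over all transcripts it held 63.6 bases per megabase in HCC827/GR and 17.0 in HCC827. The 5 compared small structured RNAs had 1 gene up and 1 down, with a median of 0.34. RMRP, the RNA of ribonuclease MRP, had 2375 FPKM in HCC827/GR, against a listed 0 in HCC827 and in both A549 libraries, and RPPH1, the RNA of ribonuclease P, had 1345 FPKM in HCC827/GR and 754 in HCC827. SCARNA2 had 0.159 FPKM in HCC827/GR and 122 in HCC827.

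The remaining extremes were mostly genes with clone-based names. Besides RMRP and AC002066.1, the 10 largest ratios at 5 FPKM or more held RP11-138I1.4 on chromosome 17, with 210 FPKM in HCC827/GR and 1.65 in HCC827, and CTD-2354A18.1, with 110 and 3.30, while the other 6 were listed at 0 in HCC827. Besides SCARNA2, the 10 smallest were listed at 0 in HCC827/GR: AC005786.7, with 110 FPKM in HCC827, had the most, and FGD5-AS1 had 21.5 FPKM (1138 read pairs). Among the 10 highest in HCC827/GR, RP5-940J5.9 had 847 FPKM in HCC827/GR and 180 in HCC827, RP11-386G11.10 had 576 and 199.8, RP11-161H23.5 had 544 and 174, and RP11-571M6.7 had 380 and 59.6.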

How the data were processed

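Total RNA of 4 cell line libraries was depleted of ribosomal RNA and sequenced in paired ends. The authors trimmed reads with Cutadapt, aligned them with Bowtie 2 and TopHat2, and estimated transcripts with StringTie and Ballgown, and the submitters' processing notes name TopHat. The sources used here do not give versions, the genome build or the circRNA caller. For lncRNAs, the deposited values are the authors' FPKM and mean coverage signal of 54708 transcripts, and for circRNAs they are estimated counts, with FPKM, of 3840 circles as the authors deposited them. Neither table holds the authors' own comparisons.

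Estimated circRNA counts were summed per host gene and scaled to the library's circRNA total, with counts rounded to whole numbers only for the intervals. FPKM was summed over the annotated transcripts of a symbol and compared with a pseudocount of 1 FPKM. Coverage times length, divided by 302 bases, gave read pairs. With 1 library per condition no test across genes was run, and lists are described by counts and medians. Calculations were tested on simulated data. The depths are given in the report. PCR copies are not independent molecules, so intervals cover counting error only.

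The rule for named genes takes the 10 largest and 10 smallest ratios and the 10 highest sums or FPKM in HCC827/GR of each table, the 5 extreme circRNAs in each direction, and members of the lists. The members and lists were chosen with earlier results of these data known. Alternatives were minimums of 5 and 50 counts, median scaling, sums over circRNAs above 0 in both libraries, a pseudocount of 0.1 FPKM, a filter of 5 FPKM or none, bases per megabase, and unannotated transcripts. Non-overlapping circRNAs and 100 read pairs in both libraries were added after seeing the data. The software was scipy 1.17.1, numpy 2.4.6 and pandas 2.3.3 under Python 3.11.15, and matplotlib 3.10.9 for figures.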

Additional observations from a re-analysis of the deposited data

Results flagged for a closer look

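The genes named here were past 2-fold in opposite directions in the 2 pairs of lines. With 1 library per condition the difference between the pairs was not tested. Values are log2 ratios of the resistant line over its parent, first in the HCC827 pair and then in the A549 pair.

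Among circRNA sums that were higher in HCC827/GR than in HCC827, NR5A2, a nuclear receptor, was at 3.39 and -3.53, with 198 counts in A549/DDP and 2048 in A549. INPP4B, the phosphoinositide phosphatase, was at 2.62 and -3.15, with 256 counts in A549/DDP and 2041 in A549. TFPI, an inhibitor of the start of coagulation, was at 2.97 and -1.75, with 510 counts in HCC827/GR and 86 in HCC827. WDR78 was at 4.51 and -1.23, with 20 counts in A549/DDP and 42 in A549. DAPK1 was at 2.62 and -1.04, and MAML2, a coactivator of Notch, at 1.65 and -1.62. ERBB2 was at 1.56 and -1.39, with 124 counts in A549/DDP and 291 in A549. ABCC3 was at 1.08 and -2.13, with 1991 counts in A549/DDP and 7837 in A549.

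Among circRNA sums that were lower in HCC827/GR, CPS1 was at -2.28 and 3.59, with 39876 counts in A549/DDP and 2971 in A549. POLE2 was at -1.97 and 1.32, and SLC7A11 at -1.97 and 1.07.

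Among annotated lncRNA genes, LINC00511 was at 1.55 and -1.02 (0.22 in the HCC827 pair with unannotated transcripts, below 2-fold), CTD-2354A18.1 at 4.69 and -1.10, and RP11-571M6.7 at 2.65 and -1.32. In bases per megabase over all transcripts, LINC00511 had a plain ratio of 1.96 in the HCC827 pair. DANCR was at -2.17 and 1.22 (-0.67 in the HCC827 pair with unannotated transcripts). FGD5-AS1 was at -4.49 and 3.59. SCARNA2 was at -6.73 and 5.65, and was listed at 0 in A549. The loss of transcripts from the HCC827/GR library moves in the same direction as the last 3 falls, and its part in them was not tested.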

How the results depend on the processing

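No paired analysis was possible because each condition had 1 library, and for the same reason no library could be left out. Counts of host genes and of single circRNAs moved by less than 1.5 times under other minimums, median scaling and sums over circRNAs above 0 in both libraries. Requiring every non-overlapping circRNA of a gene to pass, chosen after seeing the data, left 15 host genes higher and 20 lower of 317. For lncRNA genes a filter of 5 FPKM gave 378 higher and 216 lower of 822, and 100 or more read pairs in both libraries gave 51 and 26 of 293, since these filters drop most genes at 0 in HCC827/GR. Median log2 ratios of lists, taken where at least 3 members passed, were moved by more than the spread within host genes (0.592) in 4 of 51 values: snoRNA host genes -0.34 and microRNA host genes -0.44 at 5 FPKM, HOX cluster lncRNAs -2.34 at 5 FPKM, and snoRNA host genes 0.14, reversed, at 100 read pairs. Of 64 named host genes, 240 of 241 values stayed within that spread. Of 49 named lncRNA genes, 261 of 311 did, and 3 reversed when unannotated transcripts were added: CASC9 -0.25, PVT1 2.83 and LINC00963 0.72. Bases per megabase over all transcripts, given for some genes above, are a separate measure and yield other values. By that measure MALAT1 also went the other way, with a ratio of 1.27. The spread within host genes was measured between single circRNAs of a gene, so it is only a yardstick for host sums, lists and lncRNA genes. Median scaling moved every host gene by 0.0457 on the log2 scale, so that alternative could not exceed it.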
